A study of Mus musculus with 42 samples.

Results

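Heterotrimeric G proteins carry the signal of a cell surface receptor into the cell, and their alpha subunit decides which signal it is. The 10 genes described here encode alpha subunits of the Gq/11 class (Gna14, Gnaq, Gna11, Gna15), the Gi/o class (Gnai1, Gnai2, Gnai3, Gnao1, Gnaz) and the G12/13 class (Gna13), out of 18337 genes named on the arrays of the series. Gna14 was chosen because earlier results of these data showed more of it in dorsal root ganglion, and the others were selected as its family, so the difference of Gna14 between the ganglia is given as a description without a test.

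RNA of sensory ganglia of BALB/c mice, an inbred strain kept under standard housing and not treated, was measured on Affymetrix arrays in 6 groups. Whole nodose ganglion (NG, n = 7), which holds the cell bodies of vagal afferents, was set against whole dorsal root ganglion (DRG, n = 5), which holds those of spinal afferents, on MG-U74Av2 arrays. About 150 neurons per sample, called visceral sensory neurons by the submitters, were cut out by laser capture microdissection from NG (n = 5) and DRG (n = 5) and measured on MG-U74Av2, and from NG (n = 11) and DRG (n = 9) and measured on Mouse430_2. The sources used here give neither age nor sex, nor how the captured neurons were recognised. Each sample description mentions laser capture, whereas for the MG-U74Av2 comparison of NG with DRG tissue the extraction text speaks of whole ganglia. The series design was followed here. For captured neurons on MG-U74Av2 the labelled RNA is called amplified, for the other experiments total RNA. Whether the RNA of so few neurons was amplified for Mouse430_2 too is not settled by the labels. Whether each sample had its own animal is not recorded, and a p-value here reflects only the spread between samples, which may be technical.

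A receptor bound to its ligand makes the alpha subunit exchange GDP for GTP and part from the beta and gamma subunits. Gq/11 subunits then activate phospholipase C beta, which releases calcium from internal stores, and are known for exciting sensory neurons. Gi/o subunits inhibit adenylyl cyclase, while their beta and gamma partners open potassium channels and close calcium channels, which is how opioid and other inhibitory receptors quieten such neurons. G12/13 subunits activate RhoA through guanine nucleotide exchange factors.

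The Gq/11 genes lie in pairs in the mouse genome. In the RefSeq annotation of assembly GRCm38.p6, Gnaq and Gna14 are neighbours on chromosome 19 with 1 non-coding gene, Gm19312, between them, and Gna15 and Gna11 are adjacent on chromosome 10. The 250 bases before the annotated start of Gna14, Gnaq and Gna11 are shown because these 3 Gq/11 genes differed between the ganglia on Mouse430_2 by their brightest probe sets. They are RefSeq promoter sequences of GRCm38.p6 on the gene's own strand, 5′ to 3′, with every CG dinucleotide in capitals. Gna14 is at chr19:16435417-16435666 (plus strand), Gnaq at chr19:16132434-16132683 (plus strand) and Gna11 at chr10:81545163-81545412 (minus strand).
Gna14: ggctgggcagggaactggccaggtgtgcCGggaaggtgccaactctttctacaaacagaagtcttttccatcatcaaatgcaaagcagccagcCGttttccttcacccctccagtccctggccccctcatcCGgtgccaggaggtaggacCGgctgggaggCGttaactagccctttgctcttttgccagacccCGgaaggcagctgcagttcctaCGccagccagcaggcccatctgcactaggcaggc
Gnaq: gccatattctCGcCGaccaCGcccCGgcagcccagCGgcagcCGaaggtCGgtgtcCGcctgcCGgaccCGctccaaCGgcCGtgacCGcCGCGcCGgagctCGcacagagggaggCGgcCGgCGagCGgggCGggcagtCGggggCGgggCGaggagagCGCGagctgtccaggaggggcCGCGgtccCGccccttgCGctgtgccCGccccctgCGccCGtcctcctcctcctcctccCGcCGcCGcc
Gna11: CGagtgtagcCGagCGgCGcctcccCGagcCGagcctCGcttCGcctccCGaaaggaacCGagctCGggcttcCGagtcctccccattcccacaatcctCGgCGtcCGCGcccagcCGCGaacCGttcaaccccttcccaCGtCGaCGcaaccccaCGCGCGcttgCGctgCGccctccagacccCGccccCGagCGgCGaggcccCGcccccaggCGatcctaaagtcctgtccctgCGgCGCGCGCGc
The Gna14 stretch held 7 CG dinucleotides, against a median of 6 over the 32851 promoter windows of the same length. Gnaq held 37 and Gna11 held 38, more than 97.8% and 98.1% of those windows. The GC box GGGCGG, searched on both strands, occurred 4 times in Gnaq, 2 times in Gna11 and 0 times in Gna14, and 32.7% of all windows held at least 1. The TATA box TATAAA, also searched on both strands, occurred in none of the 3, and 12.4% of all windows held it. Of the 10 genes, 8 had a promoter entry. These matches describe letters and not bound sites.

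Expression values are MAS5 signals, scaled so that every array of one type has the same 2% trimmed mean. A gene with several probe sets (the short-oligonucleotide groups that each read one transcript region) is represented by the probe set with the highest mean log2 signal, and the others are given where they differ. Log2 differences are on the log2(signal + pseudocount) scale, with a pseudocount of 11.7 for whole ganglia and, for captured neurons, 11 on MG-U74Av2 and 7.48 on Mouse430_2, so that differences of dim genes are understated. Testing with limma required a probe set to be above the 40th percentile of its array on enough arrays, and a call means a Benjamini-Hochberg adjusted p under 0.05 over all probe sets tested. The genes had 19 probe sets on MG-U74Av2 and 32 on Mouse430_2. The chosen probe set was tested for 8 of 10 genes between whole ganglia, and between captured neurons for 6 on MG-U74Av2 and 9 on Mouse430_2.

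The samples differed by preparation as well as by ganglion. The log2 ratio of the 3′ to the 5′ beta actin control, which rises when RNA is shortened, was 5.28 to 6.2 for captured MG-U74Av2 samples and 4.88 to 6.15 for those on Mouse430_2, against 2.26 to 3.44 in whole ganglia. Summed signals of neuron markers were of similar size in captured NG neurons (31289.7 to 35702 on MG-U74Av2) and whole NG (25649 to 34833), and in captured DRG neurons (27902 to 29163) and whole DRG (28467 to 31007). Fibroblast markers summed to 1069 to 2794 in captured NG neurons and to 5986 to 9881 in whole NG, and to 2568 to 5654 in captured DRG neurons and 6597 to 10275 in whole DRG. Neuronal markers were thus present in every group, and those of fibroblasts were not absent from the captured samples. No marker was listed at 0 on any array.

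Gna14, which couples receptors to phospholipase C as Gnaq does, was low in NG and higher in DRG in all 3 experiments. All 5 NG and all 5 DRG sample numbers of the captured MG-U74Av2 set recur on Mouse430_2, and whether these are the same samples is not recorded, so both captured sets may not be independent. In whole ganglia its signal (95364_at) ran from 14 over a median of 19.9 to 48.4 in the 7 NG samples, against 168, 218, 227, 258 and 259 in the 5 DRG samples. The lowest DRG sample was thus well above the highest NG sample. Fewer cells of a type and less RNA per cell cannot be told apart in such samples. Captured neurons on MG-U74Av2 gave 1.96, 4, 4.46, 6.24 and 6.68 in NG, against 29.6, 33.9, 36.8, 43.7 and 79.3 in DRG. Again the groups did not overlap, but all values were small, and the probe set was too dim to enter the test there. The NG values lay between the 1.7th and the 13.4th percentile of their arrays, and the DRG values between the 36.4th and the 53.8th. On Mouse430_2 the main probe set (1420385_at) ran from 2.3 over a median of 26.5 to 74.7 in the 11 NG samples, against 240.4 over 303 to 524 in the 9 DRG samples. The NG samples spread more on the log2 scale than the DRG samples, with an SD of 0.97 in NG and 0.35 in DRG.

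The log2 difference of Gna14, NG minus DRG, was -2.71 for whole ganglia. Captured neurons gave -1.77 on MG-U74Av2 and -3.32 on Mouse430_2. Both other probe sets of Mouse430_2 separated the ganglia too. Probe set 1447791_s_at had a median of 4.83 in NG and 383 in DRG (log2 difference -4.73), and 1449848_at a median of 16.8 in NG and 96.2 in DRG (-2.05). These are the values Gna14 was chosen on, on MG-U74Av2 with 1 probe set and on Mouse430_2 with 3. With a pseudocount of 1 in place of 11, the difference in captured neurons on MG-U74Av2 was -3, which shows how much the size on this array type rests on signals below the pseudocount.

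**Figure D1:**
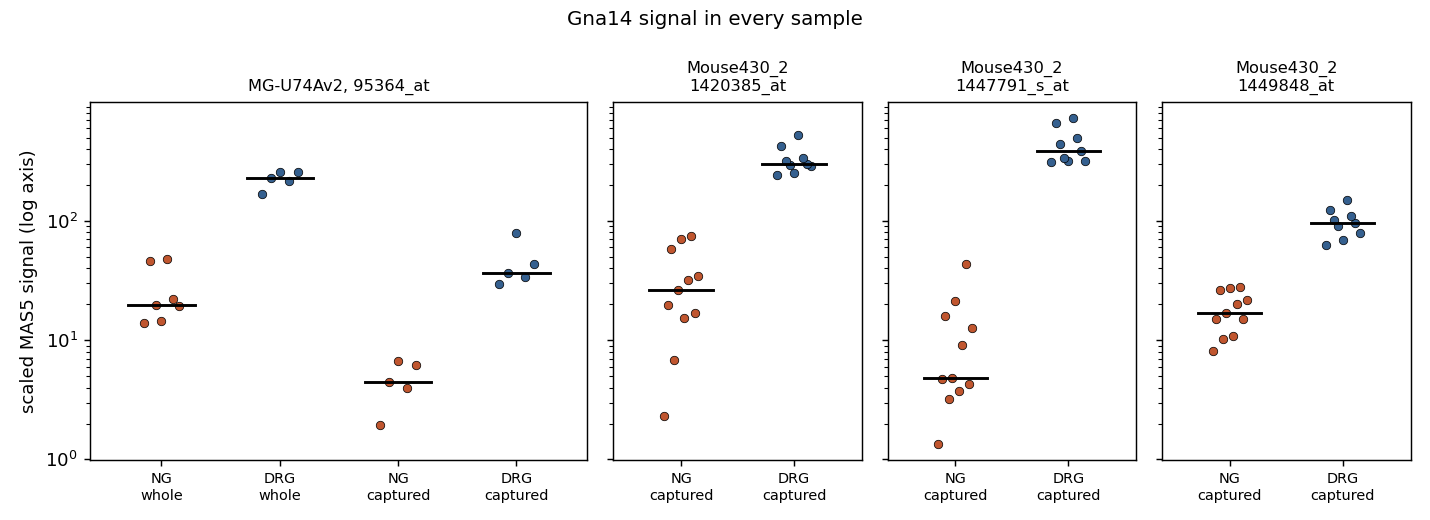
Scaled MAS5 signal of Gna14 on a log axis, 1 point per sample, NG in red-brown and DRG in blue, with a bar at each group's median; the left panel holds whole and captured samples on MG-U74Av2 and the others the 3 probe sets of Mouse430_2. NG and DRG points do not overlap in any panel, for example 1.96 to 6.68 in captured NG neurons and 29.6 to 79.3 in captured DRG neurons on MG-U74Av2. Gna14 was chosen on these values, and the 3 probe sets of Mouse430_2 were read on the same samples, so the panels are not separate observations.

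Gna11, which shares the phospholipase C pathway with Gnaq, went the other way from Gna14 and was higher in NG. On Mouse430_2 its signal (1434254_at) ran from 1337 over a median of 1649 to 2331 in NG, against 770.3 over 1052 to 1137 in DRG. Every NG sample was above every DRG sample, and the share of all probe sets that separate in this way is not given here. The log2 difference was 0.81 (SE 0.115, 95% interval 0.57 to 1.04, limma adjusted p = 5.56e-06), which is 1.75-fold. The second probe set, 1449144_at, gave 0.67 (SE 0.118, adjusted p = 0.000104), also without overlap. In whole ganglia Gna11 (102196_at) ran from 399 over 563 to 647 in NG, against 372, 381, 399.7, 432 and 466 in DRG. Here the groups overlapped, the log2 difference was 0.37 (SE 0.118, limma adjusted p = 0.0189), and the second probe set (103411_at, 0.08, adjusted p = 0.736) was not called. The call on 102196_at was lost without DRG sample 84 (adjusted p = 0.0521), under scaling to the same median (0.156) and with the mean over both probe sets (0.192). Captured neurons on MG-U74Av2 had 820, 868, 946, 964 and 1083 in NG, against 544, 809.6, 829, 875 and 981 in DRG. That difference of 0.23 (95% interval -0.1 to 0.56, limma adjusted p = 0.319) did not pass the test.

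Gnaq, the founding member of the class, was lower in NG by its main probe set on Mouse430_2. Its signal (1429559_at) ran from 805 over 1181 to 1759 in NG, against 1454 over 1581 to 2437 in DRG. The ranges overlapped, with 9 of 11 NG samples below the lowest DRG sample, and the log2 difference was -0.58 (SE 0.132, 95% interval -0.85 to -0.3, limma adjusted p = 0.00189). Of its 7 probe sets, only this one and 1455729_at (-0.39, adjusted p = 0.0439) passed. The other 5 ran from -0.38 to 0.19, and the mean over all 7 gave -0.21 (adjusted p = 0.25). Scaling to the same median gave -0.42 (adjusted p = 0.1). On MG-U74Av2 the only Gnaq probe set (99981_at) was dim, with 45.4 ± 6.86 in whole NG (SD, n = 7) and 54.8 ± 2 in whole DRG (SD, n = 5), a log2 difference of -0.23 that was not called (limma adjusted p = 0.216). Captured neurons averaged 44.3 ± 14.9 for NG and 35 ± 2.24 for DRG (n = 5 per ganglion, SD), untested because of the filter.

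**Figure D2:**
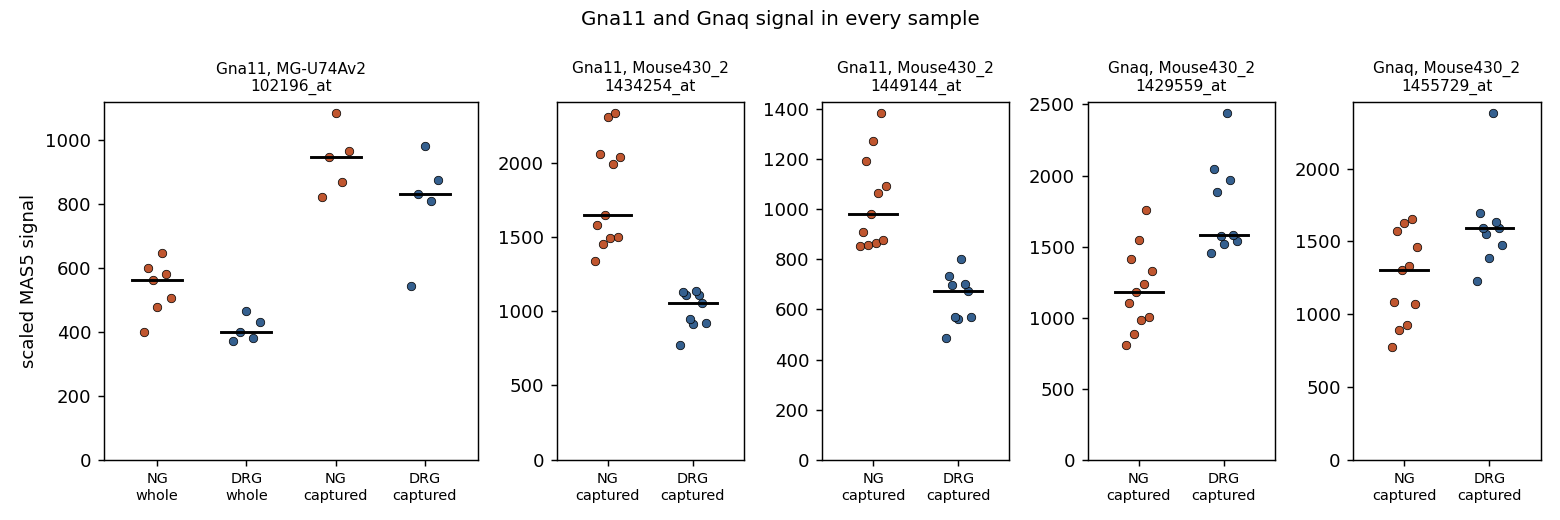
Scaled MAS5 signal (linear axis from 0) of Gna11 in the 4 groups on MG-U74Av2 and of 2 probe sets each of Gna11 and Gnaq on Mouse430_2, 1 point per sample, NG in red-brown and DRG in blue, with a bar at each median. Both Gna11 probe sets separate NG from DRG on Mouse430_2 (1337 to 2331 against 770.3 to 1137 for 1434254_at), while the Gnaq groups overlap.

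Gna15, best known from blood cells, was dim in all groups. Its mean signal was 11.8 ± 4.11 in whole NG (SD, n = 7) and 8.28 ± 3.78 in whole DRG (SD, n = 5), 11.9 ± 6.66 in captured NG neurons and 15 ± 3.93 in captured DRG neurons on MG-U74Av2 (SD, n = 5 each). On Mouse430_2 it averaged 19.2 ± 4.65 in NG (SD, n = 11) and 23.2 ± 9.86 in DRG (SD, n = 9). It stayed below the filter in every experiment and was not tested.

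Of the Gi/o genes, Gnai1 and Gnai3 were lower in whole NG. Both proteins lower cyclic AMP by inhibiting adenylyl cyclase. Gnai1 (104412_at) ran from 675 over 1024 to 1236 in NG, against 1070, 1163, 1329, 1361 and 1396 in DRG, and the log2 difference was -0.37 (SE 0.131, limma adjusted p = 0.0358). Gnai3 (94814_at) ran from 965 over 1088 to 1439 in NG, against 1244, 1308, 1468, 1616 and 1914 in DRG, with a log2 difference of -0.38 (SE 0.125, limma adjusted p = 0.0242). In both genes the ranges overlapped and the calls were weak. The Gnai1 call was lost without any one of the samples NG 23, NG 26, NG 46, DRG 37, DRG 70 and DRG 84 (limma adjusted p 0.0534 to 0.0876). It was also lost under quantile normalization (0.057), without the filter (0.0567), with the mean over its probe sets (0.0592) and with all 4 groups in one fit (0.147). The Gnai3 call was lost without NG 23, NG 26, DRG 37 or DRG 70 (limma adjusted p 0.05 to 0.0838) and with all 4 groups in one fit (0.124). Markers of other cells differed between the whole ganglia too. Of 9 endothelial and mural markers 5 were higher and 2 lower in NG, against 19.6% and 15.8% of all probe sets, and their sums did not overlap, at 1323 to 2269 in NG and 931 to 1228 in DRG. Of 6 macrophage and lymphocyte markers 2 were higher, with sums of 1133 to 1504 in NG and 663 to 1038 in DRG. Their part in the differences of Gna11, Gnai1 and Gnai3 was not tested.

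In captured neurons neither difference passed. Gnai1 differed by -0.12 (95% interval -0.63 to 0.38) on MG-U74Av2 and by -0.14 (-0.35 to 0.07) on Mouse430_2, and Gnai3 by 0.04 (-0.46 to 0.53) and -0.17 (-0.6 to 0.27). The intervals on MG-U74Av2 hold the values found in whole ganglia. A second Gnai3 probe set of Mouse430_2, 1437225_x_at, had 47 ± 14.4 in NG (SD, n = 11) and 77.3 ± 24 in DRG (SD, n = 9), a log2 difference of -0.63 (SE 0.193, limma adjusted p = 0.0193). In captured NG neurons on MG-U74Av2 the samples split: Gnai3 had 607, 728 and 813 in samples 8, 3 and 7, but 1429 and 1474 in samples 10 and 14. Gnai1 had 643, 676 and 757 in samples 8, 7 and 3, but 1369 and 1379.6 in samples 10 and 14. Gna13 (100514_at) was likewise higher in samples 10 and 14, at 591 and 694, than in the others, at 319.7 to 425, while the dim Gnaq was lowest there, at 36.4 and 21.7. On Mouse430_2 the NG samples numbered 10 and 14 were again the highest for Gnai3 (1428645_at, 629 and 749) and Gnai1 (1454959_s_at, 3124 and 2759). Gna13 (1422555_s_at) had 1600.1 and 1771 there, with sample 15 between them at 1622. Gnaq (1429559_at) was not lowest in these samples, at 1331 and 1759. Whether equal numbers on both array types mean the same sample is not recorded.

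Gnai2, and Gnao1, which encodes the Go subunit that is abundant in neurons, did not pass by their chosen probe sets. Gnai2 (99596_f_at) averaged 7246 ± 938 in whole NG (SD, n = 7) and 6487 ± 722 in whole DRG (SD, n = 5), a log2 difference of 0.16 (95% interval -0.05 to 0.36). Gnao1 (103843_at) averaged 6545 ± 938 in whole NG and 6683 ± 735 in whole DRG, a difference of -0.04 (-0.25 to 0.18). On Mouse430_2 the differences were -0.05 (-0.26 to 0.15) for Gnai2 and -0.16 (-0.47 to 0.15) for Gnao1. Other probe sets of the same genes disagreed. In whole ganglia Gnai2 99597_at had 1805 ± 257 in NG and 2337 ± 258 in DRG (log2 difference -0.38, limma adjusted p = 0.0101), and Gnao1 161902_f_at had 318 ± 60.6 in NG and 502 ± 94.9 in DRG (-0.64, limma adjusted p = 0.00206). Probe sets of 1 gene read different stretches of it, and those with the suffix _f_at can also read related sequences. The call in whole ganglia therefore depends on the probe set for both genes, and for Gnai2 the direction does too.

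Gnaz, whose product Gz is known from neurons and platelets, was below the filter on MG-U74Av2 and well measured on Mouse430_2. There 1426517_at averaged 427 ± 101 in NG (SD, n = 11) and 467 ± 70.1 in DRG (SD, n = 9), which did not pass (-0.15, 95% interval -0.43 to 0.13). The dimmer 1435268_at had 135 ± 31.3 in NG and 190.2 ± 39 in DRG and was lower in NG (-0.48, SE 0.158, limma adjusted p = 0.0293). The mean over both probe sets was called as well (-0.31, limma adjusted p = 0.0479). Gna13, which signals to RhoA, passed in no experiment: whole ganglia gave a log2 difference of 0.17 (95% interval -0.05 to 0.38), captured neurons one of 0.22 (-0.22 to 0.65) on MG-U74Av2 and one of 0.09 (-0.27 to 0.45) on Mouse430_2. All 7 Gna13 probe sets of Mouse430_2 missed the threshold.

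Over the 9 genes without Gna14, 3 of the 7 tested in whole ganglia were called, against 35.4% of all probe sets tested. Of these, 1 was higher in NG (19.6% of all) and 2 were lower (15.8% of all). Captured neurons on MG-U74Av2 gave 0 calls among 6 genes with limma, against 21.8% of all probe sets (10.4% higher and 11.3% lower). At an unadjusted p under 0.05 there were 0 among those 6 and 3 among 12 probe sets. On Mouse430_2, 2 of 8 genes were called, Gna11 higher and Gnaq lower, against 22.2% of all (9.72% higher and 12.5% lower). These counts take 1 probe set per gene, whereas the background is over all probe sets. With every tested probe set of the 9 genes counted, 5 of 13 were called in whole ganglia. In captured neurons 0 of 12 were called on MG-U74Av2 and 6 of 27 on Mouse430_2. The shares are close to the background in whole ganglia and on Mouse430_2 and give no result about the family. With only 6 genes, the 0 calls on MG-U74Av2 give none either. The median log2 difference of the tested genes was -0.04, -0.03 and -0.14 in the order above, against 0.05, 0.05 and -0.05 over all probe sets tested.

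**Figure D3:**
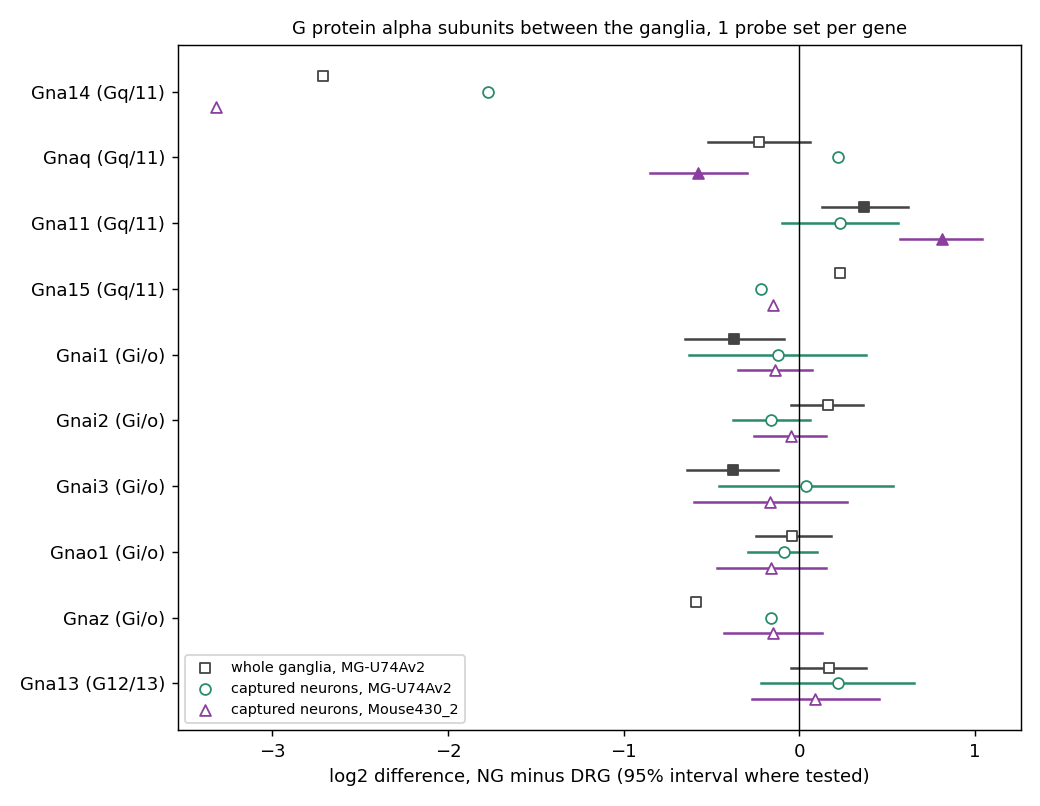
Log2 difference, NG minus DRG, of the chosen probe set of each of the 10 genes in the 3 experiments; lines are 95% intervals, drawn only where the gene was tested, and filled symbols passed the adjusted threshold (Gna14, chosen on these values, has no test). Gna14 lies far left of the others at -1.77 to -3.32, and Gna11 is right of 0 in all 3 experiments at 0.23 to 0.81.

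Captured neurons were compared with whole ganglia within each ganglion on MG-U74Av2, in a joint fit with a pseudocount of 11.4. In these experiments capture and RNA amplification cannot be told apart. Gna14 was lower in captured neurons in both ganglia. In NG it averaged 4.67 ± 1.89 in captured neurons (SD, n = 5) and 26.3 ± 14.5 in whole ganglia (SD, n = 7), and in DRG 44.7 ± 20.1 in captured neurons and 226 ± 37.3 in whole ganglia (SD, n = 5 each). The groups did not overlap in either ganglion. The log2 difference was -1.16 in NG and -2.13 in DRG, given without a test since these are the samples Gna14 was chosen on. The NG signals were dim, at the 1.7th to 13.4th percentile of their arrays in captured neurons and the 20.7th to 43.6th in whole ganglia, and with a pseudocount of 1 the differences were -2.19 in NG and -2.39 in DRG.

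Gna11 moved the opposite way and was higher in captured neurons. In NG it averaged 936 ± 101 in captured neurons and 539 ± 83.7 in whole ganglia (log2 difference 0.79, SE 0.131, limma adjusted p = 1.34e-05). In DRG it averaged 808 ± 161 in captured neurons and 410.1 ± 39 in whole ganglia (0.94, SE 0.142, limma adjusted p = 5.93e-06). Its second probe set, 103411_at, was not called in NG (0.3) or in DRG (-0.06). Over the alternatives the difference ran from 0.55 to 0.96 in NG and from 0.44 to 1.07 in DRG, always called. Gnaq and Gnai3 were lower in captured DRG neurons, at -0.51 (SE 0.181, limma adjusted p = 0.0208) and -0.69 (SE 0.194, limma adjusted p = 0.00488). In NG the same probe sets gave -0.07 and -0.27 and did not pass.

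Gnai2 and Gnao1 were higher in captured neurons by their chosen probe sets, and lower by others. Gnai2 99596_f_at gave 0.32 in NG (limma adjusted p = 0.00933) and 0.63 in DRG (limma adjusted p = 3.08e-05), but 99598_g_at gave -0.49 in NG (limma adjusted p = 0.00355) and 99597_at -0.74 in DRG (limma adjusted p = 0.000323). The NG call of 99596_f_at was lost under quantile normalization (0.11, adjusted p = 0.153). Gnao1 103843_at gave 0.35 in NG (limma adjusted p = 0.0039) and 0.4 in DRG (limma adjusted p = 0.00258), while 161902_f_at gave -0.71 in DRG (limma adjusted p = 0.000374). With the mean over all probe sets, Gnao1 differed by 0.01 in NG and by -0.27 in DRG, and Gnai2 by -0.1 and -0.13, none of them called. No direction between captured and whole samples is therefore given for these 2 genes.

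Leaving out Gna14, 3 of 7 tested genes were called between captured and whole NG by their chosen probe sets, against 55.3% of all probe sets. All 3 were higher there (26.2% of all were higher and 29.2% lower). In DRG, 5 of 7 were called, 3 higher and 2 lower, against 47.2% of all (22.9% higher and 24.3% lower). The 3 higher genes were Gna11, Gnai2 and Gnao1 in both ganglia, and for Gnai2 and Gnao1 other probe sets disagreed, as given above. These counts therefore give no direction for the family. Without captured NG sample 14, Gnai3 (-0.43, limma adjusted p = 0.0404) and Gna13 (-0.43, limma adjusted p = 0.013) were also called in NG. Markers of other cells moved with the preparation: 6 of 6 fibroblast genes were lower in captured NG neurons and 5 of 6 in captured DRG neurons. Among the 9 glial markers (satellite glia, Schwann cells), 7 were lower and 1 higher in captured NG neurons, and 4 lower and 2 higher in captured DRG neurons. Their summed signal was 12799 to 13712 in captured NG neurons and 17465 to 22207 in whole NG, and 14940.1 to 17327 in captured DRG neurons and 17142 to 20805 in whole DRG. The part of these cells, and of the higher 3′ to 5′ ratios, in the differences of the alpha subunits was not tested.

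**Figure D4:**
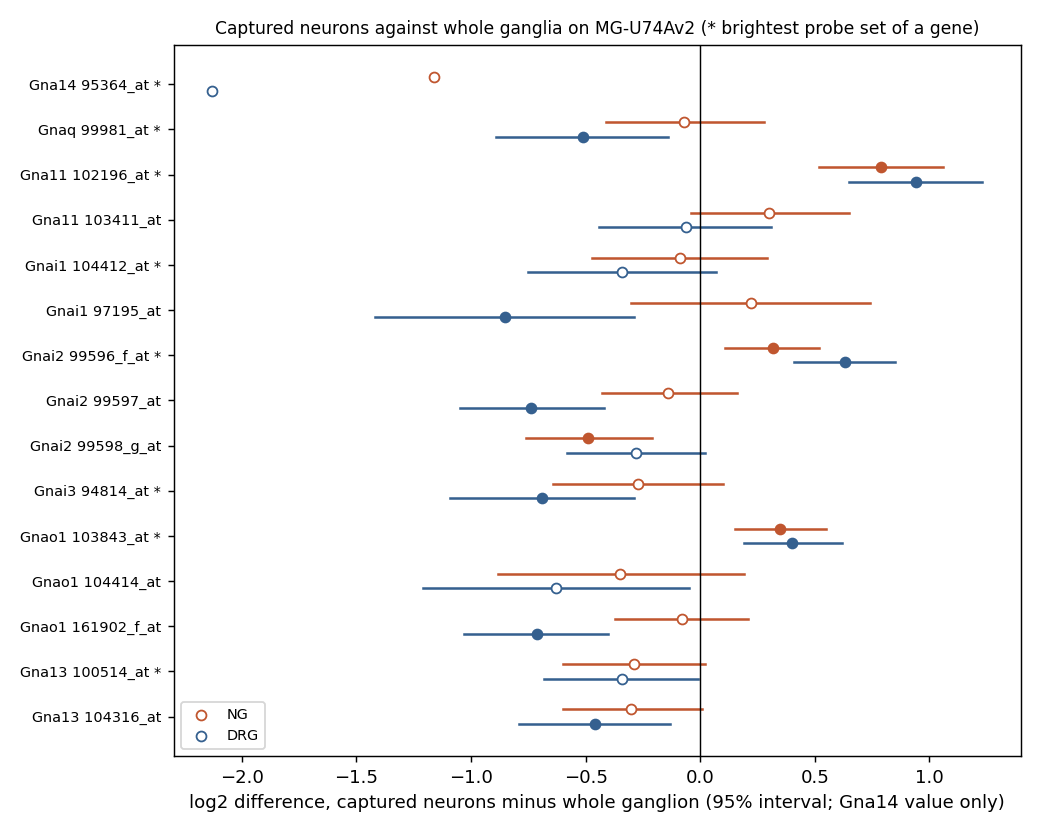
Log2 difference, captured neurons minus whole ganglion, of the 15 alpha subunit probe sets that passed the filter on MG-U74Av2, in NG (red-brown) and DRG (blue); lines are 95% intervals, filled points passed the adjusted threshold, Gna14 is shown as a value only, and a star marks the chosen probe set of a gene. Gna14 is lower in captured samples of both ganglia (-1.16 and -2.13), Gna11 102196_at is higher (0.79 and 0.94), and the probe sets of Gnai2 and Gnao1 lie on both sides of 0.

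The difference between the ganglion differences, captured minus whole, was called by limma for 0 of 7 genes by their chosen probe sets, against 18.2% of all probe sets. At an unadjusted p under 0.05 there was 1, Gnai2 (-0.32, limma adjusted p = 0.143). For Gna11 it was -0.15 (95% interval -0.54 to 0.25). Of 14 probe sets, 3 dimmer ones of Gi/o genes were called: Gnai1 97195_at at 1.07 (SE 0.373, limma adjusted p = 0.0454), Gnai2 99597_at at 0.6 (SE 0.211, limma adjusted p = 0.048) and Gnao1 161902_f_at at 0.64 (SE 0.207, limma adjusted p = 0.0319). For Gna14 the value was 0.97 and is a description, since it is made of the contrasts the gene was chosen on, and it was 0.2 with a pseudocount of 1.

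Other genes of the pathway were taken from lists of subunits, effectors and receptors. These lists were chosen with earlier results of these data known, so counts over them are descriptions. The Gq effector Plcb3, a phospholipase C beta that Gq/11 subunits activate, was higher in NG in all 3 experiments. It averaged 183 ± 36.2 in whole NG and 98 ± 16.7 in whole DRG (log2 difference 0.82, limma adjusted p = 0.000251), 239.5 ± 55.5 in captured NG neurons and 82.6 ± 12.2 in captured DRG neurons on MG-U74Av2 (1.4, limma adjusted p = 5.72e-05). On Mouse430_2 it averaged 759 ± 166 in NG and 319.6 ± 108 in DRG (1.28, limma adjusted p = 5.77e-06). Plcb4, a related enzyme, was higher in NG on Mouse430_2, at 1249.9 ± 173 in NG and 616 ± 115 in DRG (1.02, limma adjusted p = 1.11e-07). Of 9 genes in the list, 8 were tested there and 3 were higher and 0 lower in NG, against 9.72% and 12.5% of all probe sets, with a median of 0.24. In whole ganglia 1 of 5 tested was higher and 1 lower, against 19.6% and 15.8%. The lower one was Arhgef25 (-0.34, limma adjusted p = 0.00813), an exchange factor for RhoA that Gq activates.

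Receptors that act through Gq were higher in NG where they were called. On Mouse430_2, 3 of 7 tested of 14 in the list were higher and 0 lower, against 9.72% and 12.5% of all probe sets. Ntsr1, a neurotensin receptor, averaged 1301 ± 240.1 in NG and 24.1 ± 11.2 in DRG. It passed the filter through NG, and its DRG mean lay within the range of the filter signal (16.8 to 28.6), so no size is given. Cckar, a receptor for the gut hormone cholecystokinin, averaged 1111 ± 352 in NG and 276 ± 89.9 in DRG (1.99, limma adjusted p = 1.56e-08). Between whole ganglia 3 of 4 tested were higher, against 19.6% of all probe sets, among them Cckar (2.11, limma adjusted p = 3.93e-10) and Ntsr1, at 346 ± 101 in NG and, below the filter signal, 11.4 ± 3.37 in DRG. Captured neurons on MG-U74Av2 gave 3 of 3 tested, against 10.4% of all. Ntsr1 is 1 of these, with a mean of 14.8 in captured DRG neurons, below the filter signal (34.8 to 40). It is counted in all 3 experiments although it was tested through NG, and the list was chosen with earlier results of these data known. The counts are thus descriptions and give no result about Gq receptors.

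Receptors that act through Gi/o moved both ways. On Mouse430_2, 2 of 10 tested were higher and 4 lower in NG, against 9.72% and 12.5% of all probe sets, with a median of -0.41. The glutamate receptor Grm7 averaged 86 ± 31.2 in NG and 611 ± 421 in DRG (log2 difference -2.62, limma adjusted p = 2.01e-09). The serotonin receptor Htr1d, counted among the 4 lower, averaged 22.8 ± 12.3 in NG and 99.6 ± 27.9 in DRG. Its NG mean lay within the range of the filter signal (16.8 to 28.6). It was thus tested mainly through DRG, and no size is given. The MG-U74Av2 probe set of Htr1d gave -0.52 between whole ganglia (limma adjusted p = 0.0439) and 0.45 between captured neurons (limma adjusted p = 0.169), and the change between these was called (0.97, limma adjusted p = 0.0257). The dopamine receptor Drd2 was higher in NG in all 3 experiments, by 0.69 (limma adjusted p = 0.000914) between whole ganglia, and between captured neurons by 0.93 (limma adjusted p = 0.0133) on MG-U74Av2 and 1.18 (limma adjusted p = 1.57e-05) on Mouse430_2. Gabbr1 was higher in NG between whole ganglia (0.67, limma adjusted p = 7.23e-05) and on Mouse430_2 (0.41, limma adjusted p = 0.0189). It was not called between captured neurons on MG-U74Av2, and the change between captured and whole samples was called (-0.89, limma adjusted p = 0.002). Between whole ganglia 2 of 5 tested were higher and 1 lower, against 19.6% and 15.8% of all, and between captured neurons on MG-U74Av2 1 of 6 was higher and 1 lower, against 10.4% and 11.3%. The lower one among captured neurons was Npy2r, a neuropeptide Y receptor. It averaged 348 ± 141 in captured NG neurons and 1999 ± 566 in captured DRG neurons (-2.52, limma adjusted p = 5.33e-06). Its MG-U74Av2 probe set has the suffix _f_at and can also read related sequences, so its values may not be of Npy2r alone. In whole ganglia Npy2r averaged 2280.4 ± 959 in NG and 1334 ± 308 in DRG, which did not pass (0.65, limma adjusted p = 0.145), and the change between captured and whole samples was called (-3.17, limma adjusted p = 7.05e-06).

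Beta and gamma subunits, the partners of the alpha subunits, also differed. The background on Mouse430_2 was 9.72% of all probe sets higher and 12.5% lower in NG. Of 5 beta genes, 2 were higher and 0 lower there, Gnb2 (0.73, limma adjusted p = 0.000498) and Gnb4 (0.69, limma adjusted p = 0.0126). Of 9 gamma genes tested, 3 were higher and 2 lower. Gng4 averaged 2367 ± 455 in NG and 1061 ± 161 in DRG (log2 difference 1.14, limma adjusted p = 1.15e-08), and Gng8 90.9 ± 33.9 in NG and 186 ± 57 in DRG (-1.01, limma adjusted p = 0.000517). Gng10 was lower in captured NG neurons on both array types, at -0.73 (limma adjusted p = 0.00194) on MG-U74Av2 and -0.62 (limma adjusted p = 0.0104) on Mouse430_2, sets that share sample numbers. In whole ganglia Gng10 gave -0.08 (limma adjusted p = 0.642). Among the other alpha subunits, Gna12, which signals to RhoA like Gna13, was higher in NG on Mouse430_2, at 696 ± 154 in NG and 419 ± 114 in DRG (0.74, limma adjusted p = 0.000743). The Gs gene Gnas was higher in whole NG (0.36, limma adjusted p = 0.027). Of 5 tested G12/13 effectors on Mouse430_2, Rhoa was higher (0.4, limma adjusted p = 0.00358) and Rock1 (-0.75, limma adjusted p = 0.0345) and Arhgef12 (-0.42, limma adjusted p = 0.00333) were lower in NG. Of 10 tested Gi/o effectors and alpha chaperones, 1 was higher, Ric8b (0.45, limma adjusted p = 0.0102), and 2 were lower, Gpsm2 (-0.86, limma adjusted p = 0.0454) and the potassium channel gene Kcnj3 (-0.63, limma adjusted p = 0.0308).

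On Mouse430_2 the glial markers moved with the ganglion as well: 4 of 10 were lower (12.5% of all probe sets) and 0 higher in NG, and their sum was 11054 to 14118 in NG and 13972 to 16844 in DRG. Fibroblast markers summed to 923 to 2261 in NG and 1704 to 4324 in DRG, but only 1 of 5 tested was lower in NG and 0 higher. Most of that gap was Dcn, with means of 452 in NG and 1626 in DRG, while Col1a2 had 662 in NG and 677 in DRG. Of 9 endothelial and mural markers 2 were higher and 3 lower in NG, with sums of 822 to 1544 in NG and 1529 to 3093 in DRG. Rgs5 held much of that gap, with means of 162 in NG and 1268 in DRG. Kdr went the other way, with 487 in NG and 84.5 in DRG. Macrophage and lymphocyte markers summed to 732 to 1167 in NG and 557 to 1054 in DRG. The part of these cells in the differences of Gna11 and Gnaq was not tested.

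The 5 genes whose log2 signal followed Gna14 most closely, by the lower of Pearson's r over the 22 arrays of MG-U74Av2 and over the 20 of Mouse430_2, were Acpp (0.93 and 0.93), Adgrg1 (0.89 and 0.89), Ppp1r1a (0.95 and 0.89), Baiap2l1 (0.93 and 0.89) and Ly86 (0.93 and 0.88). The arrays pool both ganglia and, on MG-U74Av2, both preparations, so that these correlations hold the differences between groups and are descriptions. Acpp, a phosphatase known from pain-sensing DRG neurons, averaged 386 in NG and 1578 in DRG on Mouse430_2. Ly86, known as a partner of an immune receptor, averaged 6.21 in NG and 133 in DRG. Within the family, Gna11 ran against Gna14, at -0.71 over the 22 arrays and -0.84 over the 20, while Gnaq gave 0.37 and 0.64. For the other 7 genes r was between -0.5 and 0.54 over the 22 arrays and between -0.19 and 0.35 over the 20.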

How the data were processed

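The deposited intensity of each probe set is a linear MAS5 signal, per the submitters' processing notes, which give no version. Each array was scaled to the 2% trimmed mean shared by all arrays of its type. Log2(signal + pseudocount) was taken with the 20th percentile of an experiment as pseudocount. A probe set entered the fit if it exceeded its array's 40th percentile on a number of arrays no smaller than the smaller group. The model was fitted in R 4.3.3 by limma 3.58.1 (lmFit, then eBayes, robust and with a mean-variance trend). The fit was tested on simulated data. p-values are two-sided and Benjamini-Hochberg adjusted over all probe sets tested. Genes were named only from probe sets annotated to 1 symbol. Depth has no meaning for arrays, and their number limits the precision.

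The members and gene lists were chosen with earlier results of these data known. Named pathway genes were taken from those with the largest called difference, up to 2 per direction, list and experiment, and not all of these are named. Alternatives covered normalization, pseudocount, filter, array weights, left-out samples, sample number as a block, sample numbers absent from MG-U74Av2, 1 joint fit, and the mean over a gene's probe sets. Figures were drawn with matplotlib. No protein sequences were used here.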

Additional observations from a re-analysis of the deposited data

Results flagged for a closer look

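Among 52 sets of values (a probe set in a group of 4 to 10 samples), 1 sample stood apart by Dixon's test: captured DRG sample 10 on MG-U74Av2 had a Gna14 signal of 79.3, and the next highest had 43.7. Chance alone gives about 1 in 20.

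The ganglion difference changed between whole and captured samples for 3 dimmer probe sets of Gi/o genes (joint limma fit). For Gnai1 97195_at the change was 1.07: captured neurons averaged 59.2 ± 19.7 for NG and 31.2 ± 19 for DRG (n = 5 per ganglion, SD), and whole ganglia 49.5 ± 17.9 in NG (SD, n = 7) and 59.1 ± 4.85 in DRG (SD, n = 5). For Gnai2 99597_at it was 0.6, with 1649 ± 293 in captured NG and 1427 ± 338 in captured DRG neurons, and 1805 ± 257 in whole NG and 2337 ± 258 in whole DRG. For Gnao1 161902_f_at it was 0.64, with 298 ± 37.4 in captured NG and 300 ± 41.2 in captured DRG neurons, and 318 ± 60.6 in whole NG and 502 ± 94.9 in whole DRG. The brightest probe sets of these genes were not called in that contrast.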

How the results depend on the processing

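The 48 gene differences were recomputed under 1200 alternatives in all, of which 1132 kept direction and side of the threshold, 22 lost the call, 10 gained it and 33 changed sign. Gna14 between the ganglia and for captured minus whole has no threshold, and counts as kept where it moved by less than 1 SD. Gna14 in captured against whole samples is counted by its side of the threshold, although no test of it is given. The remaining 3 values, all of Gna14 with a pseudocount of 1, moved by more than 1 SD (-3.19 for whole ganglia, -3 for captured MG-U74Av2 samples, and 0.2 for captured minus whole). Gna11 on Mouse430_2 kept its call under all 28 alternatives (0.74 to 0.97). Called genes in whole ganglia numbered 1 with the mean over probe sets and 1 with all 4 groups in one fit, and 1 to 3 with samples left out (12 of them, 1 at a time). On Mouse430_2 they numbered 1 under the same median (Gna11). For captured against whole NG, with Gna14 counted, they numbered 2 with the mean over probe sets, and for captured minus whole 1 under quantile normalization and 0 to 1 with samples left out. The cause was not tested.

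Sign changes with the mean over probe sets: Gnai2 -0.1 for whole ganglia; Gnai1 0.35 and Gnao1 0.15 for captured MG-U74Av2 samples; Gnai1 0.06 and Gnai2 -0.1 for captured against whole NG, Gnai2 -0.13 and Gnao1 -0.27 for DRG; Gna11 0.11, Gnai2 0.03 and Gnao1 0.29 for captured minus whole. Under the same median: Gnai1 0.01 and Gnai2 0.1 on Mouse430_2, Gnaq 0.07 and Gnai1 0.08 for captured against whole NG, Gnao1 0.07 for captured minus whole. Under quantile normalization Gnaq was 0.08, and with array weights Gnai1 0.01, for captured against whole NG. With only sample numbers absent from MG-U74Av2, Gnai2 was 0.06, Gnaz 0.03 and Gna13 -0.36, and Gnao1 was called (-0.75). Leaving samples out, Gnao1 ran from -0.1 to 0.02 in whole ganglia, Gnai3 from -0.12 to 0.2 between captured MG-U74Av2 samples, Gna13 from -0.05 to 0.17 on Mouse430_2, Gnaq from -0.15 to 0.11 and Gnai1 from -0.24 to 0.03 for captured against whole NG, and Gnao1 from -0.12 to 0.01 and Gna13 from -0.09 to 0.19 for captured minus whole. Apart from Gnai2 and Gnao1 in captured against whole samples, these genes were not called in the comparison named.

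NG and DRG samples with the same number showed no likeness beyond their groups: correlations ran from -0.11 to 0.11 in captured samples on MG-U74Av2 (4 numbers) and from -0.15 to 0.16 on Mouse430_2 (7 numbers). This cannot show whether equal numbers mean the same animal, since technical spread could hide a pairing. With the sample number as a replicate block, Gna11 was 0.81 and Gnaq -0.58 on Mouse430_2, 6384 probe sets were called there and 1616 in captured neurons on MG-U74Av2, and no call of an alpha subunit changed. Signals near background limit Gna14 in captured NG neurons, Gna15 throughout, and Gnaq and Gnaz on MG-U74Av2.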

Other observations

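In whole ganglia, 2 of 5 beta subunit genes were higher in NG, against 19.6% of all probe sets, namely Gnb5 and Gnb3. Gnb3 had 63.3 ± 15.5 in NG and 37.5 ± 7.61 in DRG. Its DRG mean lay within the range of the filter signal (34.6 to 47), so it was tested mainly through NG and no size is given. Gnb5 had 523 ± 53.5 in NG and 358 ± 27.3 in DRG (limma, log2 difference 0.53, adjusted p = 0.000406). Gnb5 encodes the atypical beta subunit that pairs with regulators of G protein signalling. Gnb4 on MG-U74Av2 was called higher by limma in captured NG than in captured DRG neurons, at 173 ± 117 in NG and 36.5 ± 32.6 in DRG. The DRG mean lay within the range of the filter signal there (34.8 to 40), so Gnb4 was tested mainly through NG and no size is given. In whole ganglia Gnb4 had 134 ± 24.4 in NG and 177 ± 39.3 in DRG (limma, log2 difference -0.37, adjusted p = 0.0624). The change between captured and whole samples was called (limma, 2.21, adjusted p = 0.00733), but it includes the dim captured DRG signals.

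Kcnj9, which encodes a subunit of the potassium channels that Gi/o signalling opens, was called in opposite directions on MG-U74Av2. Whole NG had 214 ± 64.8 and whole DRG 122 ± 57.9 (limma, 0.81, adjusted p = 0.0358), while captured NG neurons had 66.1 ± 18.1 and captured DRG neurons 239 ± 71 (-1.68, adjusted p = 9.3e-05). The difference between the ganglion differences was -2.48 (limma, SE 0.386, adjusted p = 4.96e-05). On Mouse430_2, where all 12 genes of its list were measured and 10 tested, Kcnj9 was not called.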
